A study of Mus musculus with 18 samples.

Results

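The input RNA of haematopoietic stem cells (HSCs) sorted from wild-type C57BL/6 mice is described here gene by gene, as levels within 1 group of 3 libraries out of the 18 libraries of the series. The members were chosen by label: the 3 samples titled as wild-type HSC input, whose values the authors deposited as 1 of 6 columns. The table lists 23038 genes. The other groups, 3 libraries each, hold the antibody-unbound and m6A-tagged RNA of the same genotype and all 3 fractions of Mx1-cre; Mettl3fl/fl mice, and none of their levels are compared below. Every wild-type mouse had received pIpC, a double-stranded RNA analogue that induces interferon, as 5 injections of 10 µg on alternate days, and marrow was taken 10 days after the last. The levels are therefore those of pIpC-treated mice, and no untreated mice are among the groups. Whether the wild-type mice carried Mx1-cre is not given in the sources used here. From each sample 3000 Lineage- Sca1+ cKit+ CD150+ CD48- bone marrow cells were sorted, polyadenylated RNA was captured on oligo-dT beads, and full-length cDNA was made by Smart-seq2, an amplification method for few cells.

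HSCs sit at the top of the blood hierarchy: they renew themselves and give rise to multipotent progenitors and, through these, to all blood lineages. Most adult HSCs rest outside the cell cycle in the marrow niche, where signals such as stem cell factor acting through Kit maintain them. Transcription factors such as Gata2, Tal1, Lmo2, Lyl1, Erg, Fli1 and Runx1 form their core regulatory circuit, and inflammatory signals, interferon among them, can bring them into cycle for a time.

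Each value is an RPKM, a read count scaled to gene length in kilobases and to library depth in M reads (M, 1e6). It is the authors' mean of 3 libraries. Their depths, worked out from the deposited values as the M reads used for scaling, were 28.33, 33.41 and 37.22 M reads. The series' design text calls the 3 libraries biological replicates. One mean per gene leaves no spread between libraries for expressed genes, so a level has no SD, and no test was run. RPKM is per length, so levels of different genes are set side by side, as a description. The authors added 1 read per gene and library, which gives a gene without any read a small value above 0. Reads of single libraries could be worked out for genes with few reads alone.

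Among the genes in the table, the transcriptome was broad rather than led by a few genes. The chromosomes summarised below do not include the mitochondrial one. The absence of mitochondrially encoded genes from the 100 highest therefore says nothing about their level, and their RNA was not assessed. Of all genes, 50.5% stood at or above 1 RPKM, 29.1% (6700 genes) at or above 10 RPKM and 4.67% (1077 genes) at or above 100 RPKM. Only 18 genes reached 1000 RPKM. The highest gene, Eef1a1, held 0.367% of the summed RPKM, the 10 highest held 3.08%, the 100 highest 15.9% and the 1000 highest 51.8%. The sum reached 50% with 924 genes and 90% with 4998 genes. The median gene stood at 1.1 RPKM, the 90th percentile at 51.2 RPKM and the 99th at 271 RPKM.

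**Figure D1:**
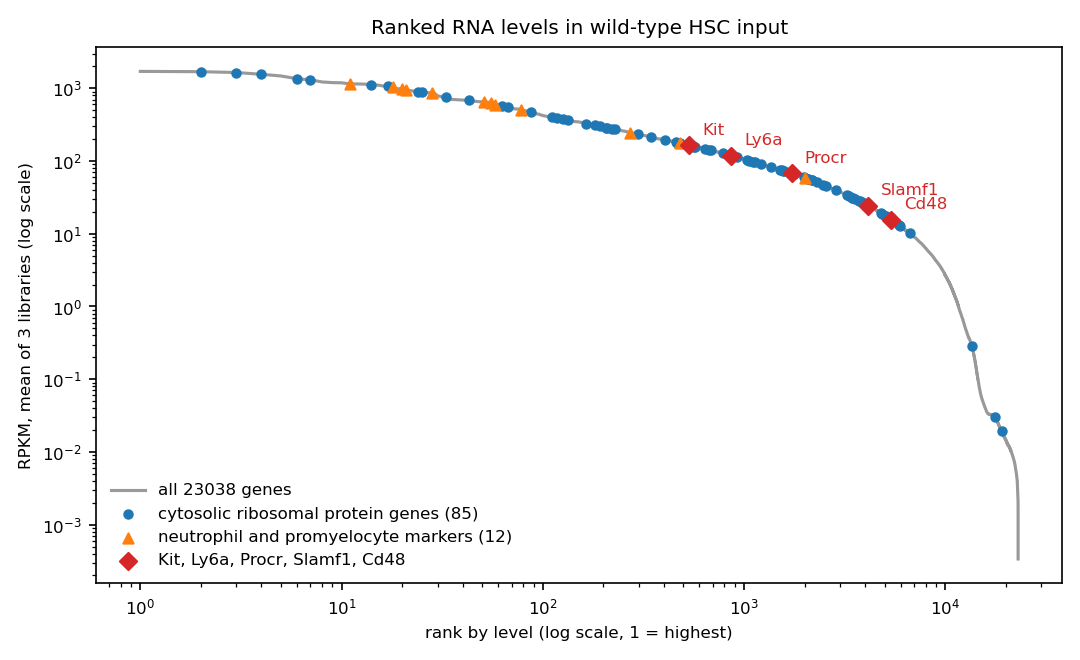
Level of each gene (RPKM, mean of 3 libraries, log axis) against its rank (log axis) in wild-type HSC input, with cytosolic ribosomal protein genes, neutrophil and promyelocyte markers and 5 surface marker genes picked out. Most ribosomal protein genes and all 12 neutrophil and promyelocyte markers lie in the flat upper part of the curve, above 10 RPKM. Kit, Ly6a, Procr, Slamf1 and Cd48 follow in this order from rank 536 to rank 5404.

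Genes of protein synthesis headed the ranking. Eef1a1, which brings aminoacyl-tRNA to the ribosome, came first at 1709 RPKM. Rpl8 at 1693 RPKM and Rpl4 at 1558 RPKM, both structural proteins of the ribosome, were among the next. Rpl32 (1356 RPKM), Rplp0 (1308 RPKM), Rps14 (1066 RPKM), Rps20 (900.1 RPKM), Rps4x (889.7 RPKM) and Rplp1 (762 RPKM) were also among the 40 highest genes. So were Gnb2l1 (now Rack1), a scaffold on the small ribosomal subunit, at 1223 RPKM, and Eef2, the translocation factor, at 849 RPKM.

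Antigen presentation genes and the actin cytoskeleton came next among the 40 highest. B2m, the light chain of MHC class I, stood at 1478 RPKM, and the class I heavy chains H2-D1 and H2-K1 at 1189.9 and 1143 RPKM. Psme1, a subunit of an interferon-inducible proteasome activator, stood at 746 RPKM. Actb, cytoplasmic actin, stood at 1198 RPKM, and its partners Pfn1 (909 RPKM), Coro1a (877 RPKM) and Tmsb4x (695 RPKM) lay below it. Arhgdib, a regulator of the cytoskeleton in blood cells, stood at 872 RPKM.

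Energy, iron and protein-folding genes filled much of the remaining ranks. Cox4i1, a subunit of cytochrome c oxidase, stood at 1148 RPKM. The ATP synthase subunits Atp5b and Atp5a1 stood at 1109.7 and 701 RPKM, and Ldha, which makes lactate from pyruvate, at 696 RPKM. The iron-storage chains Fth1 and Ftl1 stood at 987 and 762 RPKM, the chaperone Hsp90ab1 at 1079.5 RPKM, and Park7, an oxidative stress protein, at 692 RPKM. Car2, a carbonic anhydrase, stood at 931 RPKM, Gpr56 (now Adgrg1), an adhesion receptor of stem and progenitor cells, at 791 RPKM, Snrpb, a core spliceosome protein, at 771 RPKM, and Itm2b, a membrane protein, at 705 RPKM.

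A further 5 of the 40 highest genes encode proteins of neutrophil granules or cytoplasm. S100a8 stood at 1148 RPKM, Ngp at 1029 RPKM, Camp at 981 RPKM, S100a9 at 945 RPKM and Lcn2 at 857 RPKM. The last place among the 40 was held by the row of the microRNA gene Mir1198 at 689.5 RPKM.

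The promoter windows of 6 genes are shown so that the start regions of genes at different ranks can be compared: the highest gene, the highest ribosomal protein gene, neutrophil marker and proliferation gene, and the 2 HSC markers, among genes with a single RefSeq window. Each window runs from 250 bases before to 50 bases after the annotated start (RefSeq, GRCm38.p6), 5′ to 3′ on the gene's strand. Capitals mark TATAAA on the gene's strand and CCAAT or GGGCGG on either strand, the reverse strand appearing as ATTGG or CCGCCC. Kit and Ly6a have no single window in the RefSeq table and are named only.
Eef1a1, chr9:78481675-78481974, minus strand: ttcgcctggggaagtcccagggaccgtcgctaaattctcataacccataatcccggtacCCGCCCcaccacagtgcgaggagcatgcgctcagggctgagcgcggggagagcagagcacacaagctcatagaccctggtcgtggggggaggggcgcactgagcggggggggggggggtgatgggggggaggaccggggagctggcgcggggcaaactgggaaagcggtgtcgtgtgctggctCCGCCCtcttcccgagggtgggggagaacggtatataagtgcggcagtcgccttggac
Rpl4, chr9:64173137-64173436, plus strand: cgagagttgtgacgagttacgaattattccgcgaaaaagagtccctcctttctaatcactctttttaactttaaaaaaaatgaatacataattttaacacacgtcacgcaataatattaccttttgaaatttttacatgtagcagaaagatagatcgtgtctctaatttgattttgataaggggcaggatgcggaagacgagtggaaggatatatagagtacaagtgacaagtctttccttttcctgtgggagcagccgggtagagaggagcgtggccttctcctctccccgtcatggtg
S100a8, chr3:90668821-90669120, plus strand: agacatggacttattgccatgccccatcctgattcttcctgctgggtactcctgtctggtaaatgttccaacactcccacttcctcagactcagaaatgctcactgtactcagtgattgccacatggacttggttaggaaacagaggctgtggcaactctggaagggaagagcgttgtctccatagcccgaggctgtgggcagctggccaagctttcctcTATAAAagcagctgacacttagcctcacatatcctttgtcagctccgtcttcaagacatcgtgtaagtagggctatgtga
Mcm3, chr1:20820263-20820562, minus strand: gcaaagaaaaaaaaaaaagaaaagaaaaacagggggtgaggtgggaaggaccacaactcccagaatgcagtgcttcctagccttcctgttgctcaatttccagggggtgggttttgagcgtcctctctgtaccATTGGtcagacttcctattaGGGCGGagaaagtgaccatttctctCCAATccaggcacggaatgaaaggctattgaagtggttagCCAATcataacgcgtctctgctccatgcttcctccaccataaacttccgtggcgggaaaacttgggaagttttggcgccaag
Slamf1, chr1:171766882-171767181, plus strand: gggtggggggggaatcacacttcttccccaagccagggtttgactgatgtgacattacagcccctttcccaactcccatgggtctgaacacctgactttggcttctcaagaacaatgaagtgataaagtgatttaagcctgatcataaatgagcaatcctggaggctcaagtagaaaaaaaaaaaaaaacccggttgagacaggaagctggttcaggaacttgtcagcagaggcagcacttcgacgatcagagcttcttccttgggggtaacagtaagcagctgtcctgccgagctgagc
Procr, chr2:155750967-155751266, plus strand: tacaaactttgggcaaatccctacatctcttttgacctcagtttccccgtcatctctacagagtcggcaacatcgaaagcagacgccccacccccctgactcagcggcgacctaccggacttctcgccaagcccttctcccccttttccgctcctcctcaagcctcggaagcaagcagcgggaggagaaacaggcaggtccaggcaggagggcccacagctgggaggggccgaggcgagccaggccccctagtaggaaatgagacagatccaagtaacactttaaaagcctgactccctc
The window of Eef1a1 holds 22 CpG dinucleotides and 66.7% G and C, that of S100a8 holds 4 CpG and a TATAAA just upstream of the start, and that of Mcm3, a subunit of the replicative helicase, holds CCAAT in both orientations. The windows of Rpl4, Slamf1 and Procr hold none of the 3 marked motifs.

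Across genes with a single window (14863 of the genes in the table), base composition differed sharply between expressed and silent genes. The median window held 21 CpG in each of the 3 classes at or above 1 RPKM (723 genes at or above 100 RPKM, 3645 at 10 to under 100 RPKM and 3091 at 1 to under 10 RPKM). It held 4 CpG in the 7404 genes under 1 RPKM and 3 CpG in the 5498 of these without a read. GGGCGG, the GC box, stood in 65.7%, 67.1% and 64.3% of windows from the highest to the lowest of the 3 expressed classes and in 19.3% of those without a read, against 46.3% of all windows. CCGGAAG, an ETS-type motif searched on both strands, was found in 27.8%, 23.5% and 14.8% of windows from the highest to the lowest of the 3 expressed classes and in 2.55% of windows without a read, against 11.9% of all. TATAAA was found in 7.75%, 3.76% and 4.5% of windows in the same 3 classes and in 16.8% of windows without a read, against 9.25% of all. CCAAT lay between 39% and 41.6% in these 5 classes. The motif AGAGGAAG, of the type bound by the myeloid factor PU.1, was found on either strand in 3.73% of windows at or above 100 RPKM, against 4.6% of all. The motif GATAAG, of the type bound by Gata1 and Gata2, was found on either strand in 5.26% of windows at or above 100 RPKM, against 6.93% of all. Both GGGCGG and CCGGAAG contain a CpG, so these shares and the CpG counts are not separate measures, and no 2 of the motifs were required to lie apart.

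**Figure D2:**
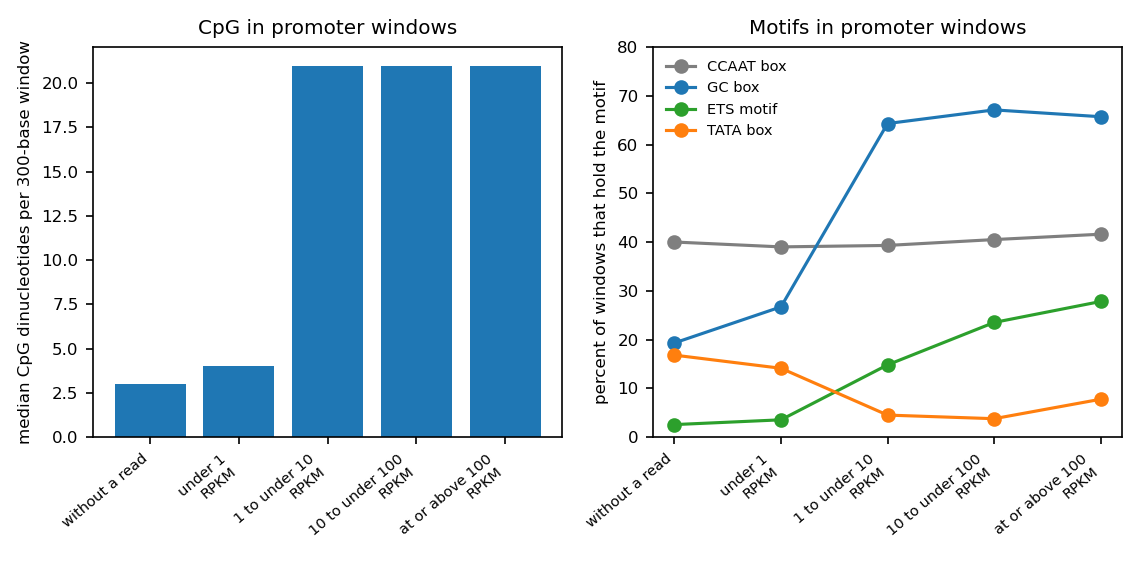
Median number of CpG dinucleotides (left) and percent of windows holding each motif (right) in 300-base RefSeq promoter windows, by level in wild-type HSC input; genes without a read are also part of the class under 1 RPKM. The CpG median is 21 in the 3 classes at or above 1 RPKM and 3 to 4 below, the GC box is between 64.3% and 67.1% in those 3 classes and 19.3% in genes without a read, the ETS motif is higher in each higher class and the CCAAT box is nearly level.

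The same counts were made for gene groups, beside all windows with a median of 13 CpG, 39.6% with CCAAT and 9.25% with TATAAA. Among proliferation genes 16 of 22 windows (72.7%) held CCAAT and the median was 24.5 CpG. Among neutrophil and promyelocyte markers 5 of 12 (41.7%) held CCAAT, near the share of all windows. Their median was 4 CpG, the same as in genes under 1 RPKM, although their levels were near the top of the ranking. The HSC genes with a single window (23 of 47) had a median of 11 CpG. TATAAA stood in 0 of these 23 windows and in 0 of the 22 windows of proliferation genes. Of 54 ribosomal protein windows, 21 (38.9%) had a C within 3 bases of the start followed by 4 pyrimidines, the kind of start by which ribosomal protein mRNAs are known to be regulated in translation, against 11.4% of all windows.

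By composition, ribosomal proteins were the largest of the gene classes drawn by name. The 85 cytosolic ribosomal protein genes, 0.369% of the genes, held 4.99% of the summed RPKM with a median of 118 RPKM. The 82 nuclear genes of oxidative phosphorylation held 3.79% with a higher median, 169.9 RPKM, led by Cox4i1. The 48 proteasome genes held 1.9% (median 139 RPKM, highest Psme1), and 118 genes of splicing factors and hnRNPs, RNA-binding proteins of the nucleus, held 1.86% (median 37.1 RPKM, highest Snrpb). The 76 mitochondrial ribosomal protein genes held 1.15% with a median of 64.7 RPKM and a narrow range, Mrpl12 being highest at 229 RPKM and Mrpl23 lowest at 9.94 RPKM. At the other end, 1480 olfactory, vomeronasal and taste receptor genes held 0.0138%, and 4 of them reached 1 RPKM, Olfr56 being highest at 7.32 RPKM. The 367 zinc finger genes of the Zfp series held 0.51% with a median of 3.35 RPKM. Protein-coding genes made up 98% of the sum and long noncoding RNA genes 0.907%. No mitochondrially encoded gene was among the classes described.

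**Figure D3:**
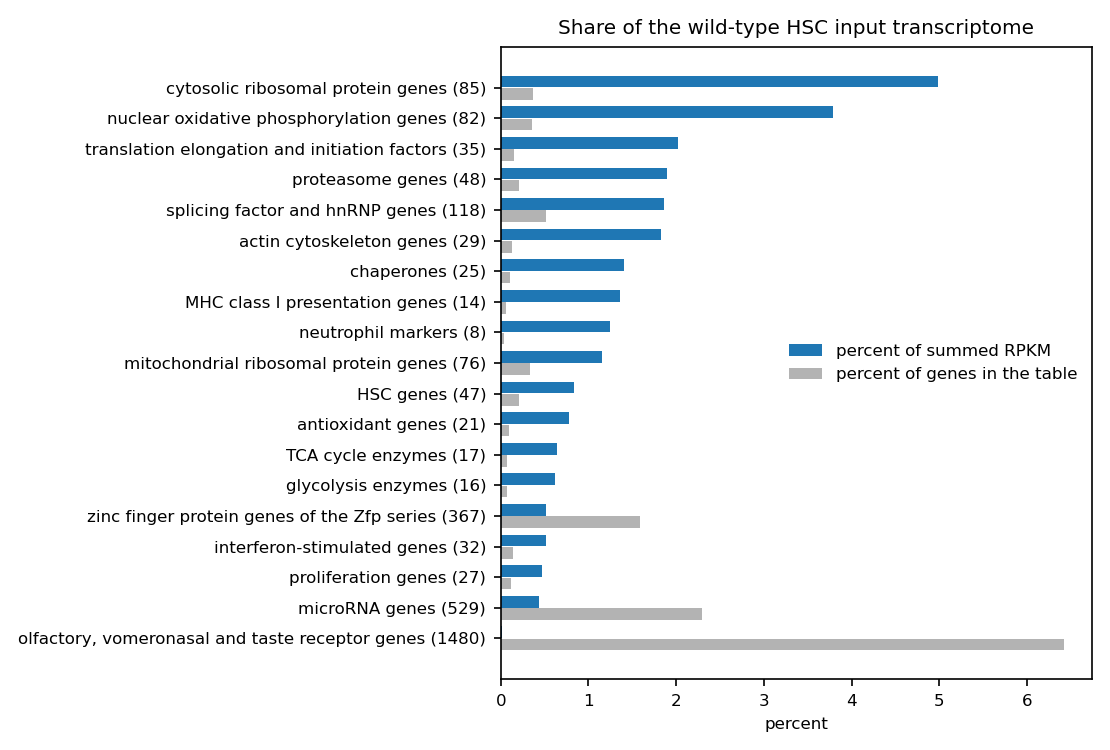
Percent of the summed RPKM (blue) and percent of the genes in the table (grey) for gene classes and lists, with the number of measured members in brackets; lists share some members. Ribosomal protein genes reach 4.99% and oxidative phosphorylation genes 3.79% of the sum, while olfactory and related receptor genes are a large share of the genes and 0.0138% of the sum.

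Members of one complex did not share one level. Among 82 ribosomal protein genes at or above 10 RPKM, the highest (Rpl8) stood 166-fold above the lowest (Rpl28, 10.2 RPKM), and the median was 134 RPKM. Rps29 (12.7 RPKM), Rps12 (13 RPKM), Rpl24 (17.3 RPKM) and Rps27 (17.8 RPKM) lay near the bottom, although the ribosome holds its proteins in nearly equal number. The same ratio was 87.6 for 75 oxidative phosphorylation genes, 48.3 for 46 proteasome genes and 21.8 for 75 mitochondrial ribosomal protein genes. Many ribosomal protein genes have near-identical processed pseudogenes, and how reads that match several places were counted is not given in the sources used here, so single levels are uncertain. RefSeq names no pseudogene after 17 of the 82 genes, whose median was 304 RPKM, 1 after 19 genes (median 167 RPKM), 2 or 3 after 16 genes (median 43.9 RPKM) and 4 or more after 30 genes (median 110 RPKM). Rps12, with 24 named copies, and Rpl31, with 23 and 27.4 RPKM, were low, while Rps2, with 12, stood at 471 RPKM. The part of these copies in the levels was not tested. The 82 genes also include relatives of other ribosomal protein genes, such as Rps27l (304 RPKM) and Rpl22l1 (158 RPKM), each without a named copy. The remaining 3 genes, Rpl39l (0.289 RPKM), Rpl10l and Rpl3l, are relatives of ribosomal protein genes known from testis or muscle and lay under 1 RPKM.

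The factors that drive translation were high as a group: 24 of 35 elongation and initiation factors reached 100 RPKM (68.6%, against 4.67% of all genes) and the median was 173 RPKM. Below Eef1a1, Gnb2l1 and Eef2, Eif5a, an elongation factor modified with hypusine, stood at 653 RPKM. Eif2s3x, the X-linked gamma subunit of eIF2, was the lowest at 2.9 RPKM, while Eif2s3y, its Y-linked copy, stood at 45.8 RPKM. Chaperones had a median of 222 RPKM. Hsp90ab1 was followed by the subunits Cct5 (651 RPKM), Cct7 (563 RPKM) and Cct3 (463 RPKM) of the chaperonin that folds actin and tubulin. The heat-inducible Hspa1a and Hspa1b, near-identical copies, stood at 0.485 and 0.0251 RPKM.

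Both arms of energy metabolism were present. All 17 listed TCA cycle enzymes reached 10 RPKM (against 29.1% of all genes), with a median of 105 RPKM, Mdh2 (malate dehydrogenase, 578 RPKM), Idh3g (472 RPKM), Sdhb (333 RPKM) and Idh3b (298 RPKM) at the top and Suclg2 at the bottom with 26 RPKM. Of the glycolytic enzymes 15 of 16 reached 10 RPKM (93.8%), with a median of 65.9 RPKM. Ldha was followed by Aldoa (aldolase, 632 RPKM), Pkm (pyruvate kinase, 371 RPKM) and Tpi1 (301 RPKM), and Hk2, an inducible hexokinase, was lowest at 4.23 RPKM. Gapdh, which has many pseudogene copies, stood at 53.7 RPKM. All 21 antioxidant genes reached 10 RPKM, with a median of 83.4 RPKM. Gpx1, a glutathione peroxidase, stood at 688 RPKM, Sod1, cytosolic superoxide dismutase, at 519.7 RPKM, and the peroxiredoxins Prdx5 and Prdx2 at 394 and 365 RPKM, with Nqo1 lowest at 13.4 RPKM. In autophagy, which HSCs use to clear mitochondria, 19 of 22 genes reached 10 RPKM (86.4%, against 29.1% of all genes). Gabarap (188 RPKM), Sqstm1 (173 RPKM), Lamp1 (171 RPKM) and Gabarapl1 (160.3 RPKM) were highest and Wipi1 (9.75 RPKM) lowest.

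The genes by which the cells were sorted were all present. Kit, the stem cell factor receptor, stood at 165 RPKM (rank 536 of 23038), and Ly6a, which encodes Sca1, at 118 RPKM (rank 867). Slamf1, which encodes CD150, stood at 24.2 RPKM (rank 4158), and Procr, the endothelial protein C receptor used as an HSC marker, at 67.6 RPKM (rank 1727). Cd48, whose product the sort required to be absent, stood at 15.5 RPKM (rank 5404), below the 3 genes of positive selection and Procr but above 10 RPKM. The mean does not say in which cells or libraries that RNA was.

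Every gene of a wider HSC list was detected. The list was chosen with earlier results of these data known, so its counts describe the listed genes alone. All 47 listed HSC genes reached 1 RPKM (against 50.5% of all genes), 39 reached 10 RPKM (83%, against 29.1%) and 15 reached 100 RPKM (31.9%, against 4.67%), with a median of 41 RPKM. Among the highest, Txnip, a redox regulator tied to HSC quiescence, stood at 383 RPKM, Cd9, a tetraspanin of HSCs and megakaryocytes, at 327 RPKM, and Lmo2, the bridging cofactor of the Tal1 complex, at 315 RPKM. Pdzk1ip1 (192 RPKM), Esam (153 RPKM), Trim47 (139.6 RPKM) and Lyl1 (134 RPKM) followed, with Kit among them. At the lower end, Mecom, a transcription factor HSCs need, stood at 8.23 RPKM, Fgd5 at 5.27 RPKM and Hoxb5 at 4.85 RPKM. Neo1, a netrin receptor, was lowest at 2.14 RPKM. Cd34, which is low on the surface of the most primitive mouse HSCs, stood at 108 RPKM.

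Markers of other blood cells were also read in the sorted cells, and those of neutrophils and promyelocytes were high. All 8 measured neutrophil markers reached 10 RPKM, with a median of 901 RPKM, and together they held 1.25% of the summed RPKM, more than the 47 HSC genes (0.837%). Below the 5 already given, Ltf (lactoferrin) stood at 635 RPKM, Retnlg at 176 RPKM and Mmp8, a collagenase, at 59.1 RPKM. The 4 promyelocyte markers, enzymes of primary granules, had a median of 548 RPKM: Mpo stood at 653 RPKM, Elane at 592 RPKM, Prtn3 at 503 RPKM and Ctsg at 244 RPKM. Lyz2 (lysozyme, 667 RPKM) and Prg2 (eosinophil major basic protein, 655 RPKM) were as high. The other monocyte genes were far lower, among them Ly6c2 (90.7 RPKM), Cd68 (20.5 RPKM), Csf1r, the receptor that defines the lineage (4.68 RPKM), and Fcgr1 (0.49 RPKM). Epx, the eosinophil peroxidase, stood at 63 RPKM, Prss34 at 32.9 RPKM, Cpa3 at 16.3 RPKM and Ms4a2 at 0.483 RPKM. Of 11 monocyte and macrophage markers 3 reached 10 RPKM (27.3%, near the share of all genes), and their median was 4.17 RPKM. Across the 4 myeloid lists, 20 of 30 markers reached 10 RPKM (66.7%, against 29.1% of all genes) and their sum was 2.02% of all RPKM. In bulk RNA, few cells with much of an RNA and many cells with little of it cannot be told apart. The part of other cells in these levels was not tested.

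Median levels were higher for megakaryocyte (26.4 RPKM) and dendritic cell and MHC class II markers (119 RPKM) than for lymphoid, stromal and endothelial ones. Single members overlapped. All 11 megakaryocyte markers reached 1 RPKM (against 50.5% of all genes). Pf4 (platelet factor 4) stood at 428 RPKM, Itga2b (CD41) at 132 RPKM, Gp9 at 87 RPKM and Selp at 52.2 RPKM. Clec1b was lowest at 3.62 RPKM, below the endothelial marker Pecam1 (22 RPKM). Of 6 dendritic cell and MHC class II markers, Cd74, the invariant chain, stood at 337 RPKM, H2-Ab1 at 172 RPKM, H2-Aa at 152 RPKM and H2-Eb1 at 86 RPKM. The dendritic markers Itgax (0.383 RPKM) and Siglech (0.312 RPKM) were under 1 RPKM. Of 10 erythroid markers 8 reached 10 RPKM (80%, against 29.1% of all genes). Car1 stood at 188 RPKM, the globin row Beta-s at 59.9 RPKM, Epor, the erythropoietin receptor, at 36.1 RPKM and Klf1, the erythroid master factor, at 27.7 RPKM. The 2 alpha-globin copies Hba-a1 and Hba-a2 were listed at 0.317 and 10.2 RPKM. Since the copies are near identical, their split is uncertain.

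**Figure D4:**
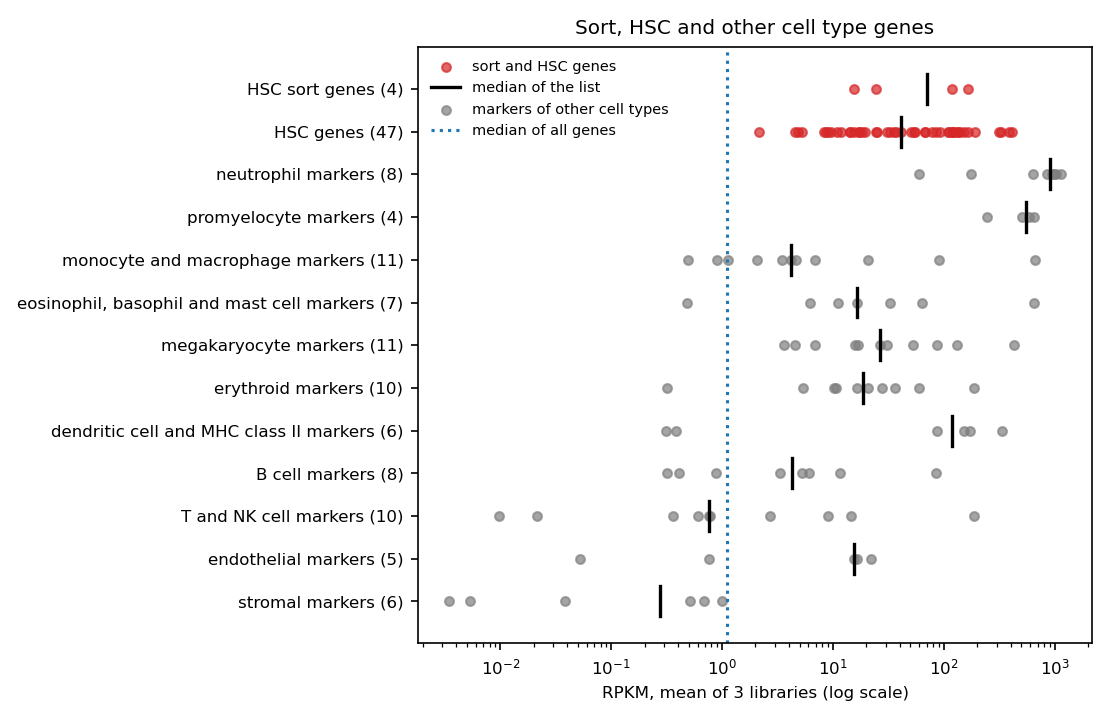
Level of every measured sort, HSC and other cell type gene (RPKM, mean of 3 libraries, log axis), with the median of each list as a black bar and the median of all genes (1.1 RPKM) as a dotted line. Neutrophil and promyelocyte markers sit at the right with medians of 901 and 548 RPKM, HSC genes around 41 RPKM, and stromal markers all lie under 1 RPKM.

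Several defining lymphoid, stromal and endothelial markers had no or few reads. Against 29.1% of all genes, 10 RPKM was reached by 2 of 8 B cell markers (25%), 2 of 10 T and NK cell markers (20%), 0 of 6 stromal markers and 3 of 5 endothelial markers (60%). In the B lineage, Cd79b stood at 84.7 RPKM and Vpreb1 at 11.6 RPKM, while Igll1 stood at 6.03 RPKM, Cd79a at 5.21 RPKM and Ms4a1 at 0.318 RPKM. The reads of Ms4a1 could be worked out by library: 155 in the deepest library and 0 in the other 2. Of 10 T and NK cell markers, Nkg7, a granule protein, stood at 188 RPKM, Cd3d at 14.4 RPKM, Lck at 9.01 RPKM and Klrb1c at 2.72 RPKM. Cd3e and Cd8a had no read in any of the 3 libraries, and Ncr1 had 123 reads, all from the deepest library. A count of 0 over the 3 libraries allows up to 0.0303 reads per M reads, and this covers counting error only. All 6 stromal markers lay under 1 RPKM: Pdgfra had no read, Lepr had 1 read, and Col1a1 had 81, 168 and 0 reads in the deepest, middle and shallowest library. Pdgfrb, at 0.992 RPKM, and Col1a2, at 0.683 RPKM, were the highest of them. Of the endothelial markers, Cdh5, which defines the lineage, had 18 reads, all in the middle library, and Kdr stood at 0.754 RPKM. Pecam1 (22 RPKM), Emcn (16.3 RPKM) and Tek (15.5 RPKM), which HSCs also express, were higher.

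Reads of low genes came mostly from single libraries. Of 9905 genes solved, 8220 had no read in wild-type input, 35.7% of the table. Of 329 genes with 1 to 5 reads, 88.1% were seen in 1 library alone, and of 394 genes with 6 to 20 reads 71.1% were. Even of 532 genes with 61 to 400 reads, 31.6% were seen in 1 library and 32.3% in all 3. Siglech had 80 reads and Itgax 181, all from the deepest library, as had Il7r, the interleukin 7 receptor, with 85. Cd14 had 128, 50 and 0 reads in the deepest, middle and shallowest library, whereas Hoxa6 had 93, 67 and 75. The deepest library held most reads for 457 of the genes with at least 21 reads, the middle one for 305 and the shallowest for 206. These genes had to lack reads in at least 2 columns of the series to be solved, which favours patchy detection, so the shares do not carry over to the expressed genes.

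The listed genes of cell division were all present. All 27 listed proliferation genes reached 10 RPKM (against 29.1% of all genes). Their median of 60 RPKM lay above the 90th percentile of all genes (51.2 RPKM). The replicative helicase led the list, with Mcm3 at 249.6 RPKM, Mcm6 at 239 RPKM, Mcm7 at 217 RPKM and Mcm5 at 188 RPKM. The mitotic genes Ccnb2 (121 RPKM), Cdc20 (92.2 RPKM), Cdk1 (68.8 RPKM) and Top2a (60 RPKM) lay in the middle. Mki67, whose protein marks cycling cells, was the lowest at 10.2 RPKM. Genes of quiescence and growth restraint had a median of 8.35 RPKM (against 1.1 RPKM for all genes), and 8 of 20 reached 10 RPKM (40%, against 29.1%). After Txnip, Zfp36l2, a factor of mRNA decay, stood at 61.7 RPKM, the kinase inhibitor Cdkn2d at 61.5 RPKM and Cdkn1c (p57), known to hold HSCs in quiescence, at 36.7 RPKM. Foxo4 was lowest at 0.542 RPKM. The sum of 27 proliferation genes was 0.47% and that of 20 restraint genes 0.146% of all RPKM. Since the values are means over pools of 3000 cells and 3 libraries, they do not say what share of cells was cycling.

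Among immediate early genes, which respond within minutes to signals or handling, 14 of 25 reached 10 RPKM (56%, against 29.1% of all genes), with a median of 12.6 RPKM. Myc stood at 117 RPKM, Dusp2 at 94.1 RPKM, Ier2 at 78.6 RPKM and Fos at 57 RPKM. Egr1 stood at 16.6 RPKM, while Egr2 and Atf3 had no read in any library.

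MHC class I presentation genes and a subset of interferon-stimulated genes were high. Of 14 presentation genes 10 reached 100 RPKM (71.4%, against 4.67% of all genes), with a median of 275 RPKM. After B2m, H2-D1 and H2-K1, Psmb8, a catalytic subunit of the immunoproteasome, stood at 589 RPKM, and Nlrc5, the transactivator of class I genes, was lowest at 8.99 RPKM. The interferon-stimulated genes had a median of 12.8 RPKM (against 1.1 RPKM for all genes), and 19 of 32 reached 10 RPKM (59.4%, against 29.1%). Ifitm3, Ifitm1 and Ifitm2, membrane proteins that block virus entry, stood at 610.2, 518 and 500.2 RPKM, and Bst2 (tetherin) at 195 RPKM. The classical genes of an acute response stood below these: Isg15 stood at 17 RPKM, Irf7 at 23.5 RPKM, Ifit1 at 5.58 RPKM, Mx1 at 1.72 RPKM and Ifit3 at 0.843 RPKM. Ifitm genes are known to be high in stem cells without interferon, and without untreated mice the part of pIpC in these levels cannot be told apart.

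Of 35 cytokine and growth factor receptors 16 reached 10 RPKM (45.7%, against 29.1% of all genes) and 2, Kit among them, reached 100 RPKM (5.71%, against 4.67%). Their median was 8.43 RPKM, against 1.1 RPKM for all genes. Il2rg, the common gamma chain, stood at 87.4 RPKM and Ifngr1, a chain of the interferon gamma receptor, at 71.9 RPKM. Flt3, which rises in multipotent progenitors, stood at 12.8 RPKM, and Il7r, which marks lymphoid progenitors, was the lowest at 0.188 RPKM. Downstream, all 11 JAK and STAT genes reached 10 RPKM (against 29.1% of all genes): Jak1 stood at 74.1 RPKM, Jak3 at 69.1 RPKM, Stat3 at 64.1 RPKM and Stat6 at 59.7 RPKM, and Jak2, a kinase of cytokine receptors in blood cells, was the lowest at 10.8 RPKM. Adhesion and homing genes had a median of 22.1 RPKM, and 20 of 26 reached 10 RPKM (76.9%). Cd81 (373 RPKM), Cd9, Cd47, a signal against phagocytosis (289.9 RPKM), and Esam were highest, and Cxcr4, the receptor that retains HSCs in the niche, was the lowest at 2.13 RPKM.

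All 31 chromatin and DNA methylation regulators reached 1 RPKM (against 50.5% of all genes) and 16 reached 10 RPKM (51.6%, against 29.1%), with a median of 13.2 RPKM. Trim28, a corepressor that silences retroelements, stood at 259 RPKM, Hdac3 at 138 RPKM, Hdac2 at 88.2 RPKM and Dnmt1, the maintenance DNA methyltransferase, at 59.9 RPKM. The 3 TET dioxygenases were at the bottom: Tet1 stood at 2.16 RPKM, Tet2 at 1.3 RPKM and Tet3 at 1.24 RPKM. Of 20 m6A writers, erasers and readers 10 reached 10 RPKM (50%, against 29.1% of all genes). Hnrnpa2b1, an abundant nuclear RNA-binding protein, stood at 316 RPKM, Mettl3, the catalytic subunit of the writer, at 36.4 RPKM, the readers Ythdf2 and Ythdc1 at 32.4 and 29.2 RPKM, and Igf2bp1 had no read. Of 16 BCL2 family genes 6 reached 10 RPKM (37.5%, against 29.1% of all genes). The effectors and BH3 proteins Bax (116 RPKM), Bid (46.9 RPKM) and Bad (32.6 RPKM) stood above Mcl1 (27.8 RPKM), the survival factor that HSCs depend on, and Hrk was lowest at 0.00572 RPKM. Of 20 long noncoding RNA genes, Gas5 (175 RPKM), Snhg6 (91.3 RPKM), Snhg5 (64.3 RPKM) and 2410004N09Rik (46.4 RPKM) were highest. Malat1 stood at 8.56 RPKM, Xist at 3.27 RPKM, and H19 had 1 read in all.

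Families of related genes divided their RNA unequally. Of 49 sets, 13 have 2 measured members, where the higher one holds at least 50% by construction, and in 10 of these it held at least 90%. In 24 of the 36 sets with 3 or more members the highest held at least 50% of the set's summed RPKM, and in 5 it held at least 90%. Pkm held 98.9% of pyruvate kinase, Pfn1 99.8% of profilin, Tmsb4x 98.1% of beta-thymosin, Cfl1 98.3% of cofilin and Aldoa 94.1% of aldolase. Cdk4 (646 RPKM) stood 22.2-fold above Cdk6 (29 RPKM), its partner kinase in G1, and Ldha (696 RPKM) 6.21-fold above Ldhb (112 RPKM). Hif1a held 90.9% of the hypoxia factors, at 18.1 RPKM. Rps27l (304 RPKM) stood 17.1-fold above Rps27 (17.8 RPKM), and Rpl22l1 (158 RPKM) and Rpl22 (114 RPKM) were close. These ratios are between genes of the same libraries and have no replicate check.

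**Figure D5:**
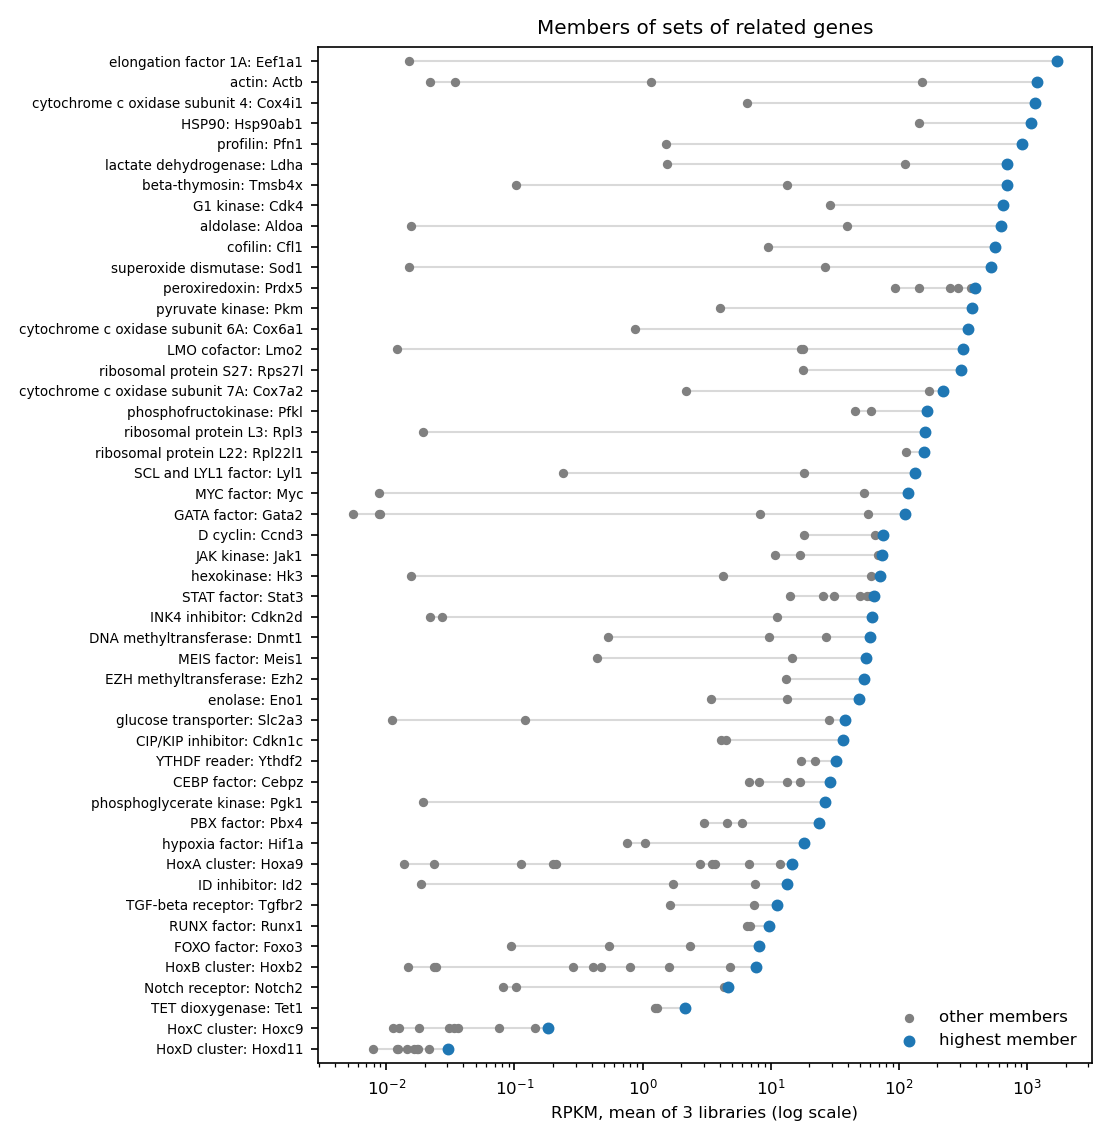
Level of each member (RPKM, mean of 3 libraries, log axis) in 49 sets of related genes, ordered by the highest member (blue), whose name follows the set's. Elongation factor 1A, profilin and aldolase have 1 dominant member, while STAT factors and peroxiredoxins lie close together, and values around 0.03 RPKM or less are mostly genes without a read.

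The haematopoietic factors divided their sets in a graded way. Gata2, the GATA factor of stem cells, stood at 111 RPKM, Gata1, that of red cells and megakaryocytes, at 57.5 RPKM and Gata3 at 8.26 RPKM, while Gata4 had no read. Lyl1 (134 RPKM) stood 7.34-fold above Tal1 (18.3 RPKM), its close relative. Meis1 held 78.6% of the MEIS set at 55.4 RPKM, and Meis3 stood at 14.7 RPKM. The RUNX genes were close: Runx1 stood at 9.64 RPKM, Runx3 at 6.83 RPKM and Runx2 at 6.48 RPKM. The MYC set was shared between Myc (117 RPKM) and Mycn (53.9 RPKM), and the D cyclins between Ccnd3 (74.7 RPKM), Ccnd2 (65.2 RPKM) and Ccnd1 (18.1 RPKM). Dnmt1 at 59.9 RPKM was followed by the de novo enzymes Dnmt3b (26.9 RPKM) and Dnmt3a (9.68 RPKM). Foxo3, the FOXO factor known to maintain HSCs, held 73% of its set at 8.04 RPKM.

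Hox genes were confined to 2 of the 4 clusters at 1 RPKM or more. In the HoxA cluster 6 of 11 genes reached 1 RPKM, near the share of all genes (50.5%). They were Hoxa9 (14.7 RPKM), Hoxa7 (11.8 RPKM), Hoxa10 (6.8 RPKM), Hoxa5 (3.7 RPKM), Hoxa6 (3.45 RPKM) and Hoxa3 (2.81 RPKM). In the HoxB cluster 3 of 10 reached it, a lower share than among all genes: Hoxb2 (7.72 RPKM), Hoxb5 (4.85 RPKM) and Hoxb6 (1.61 RPKM). Hoxb4, known for expanding HSCs when forced, stood at 0.408 RPKM. In the HoxC and HoxD clusters 0 of 18 genes reached 1 RPKM. Hoxc9, the highest of HoxC at 0.182 RPKM, had 24 reads, all from the shallowest library, and Hoxd11, the highest of HoxD, had none.

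Some rows of small RNA genes had high values. Of 529 microRNA rows 11 reached 10 RPKM (2.08%, against 29.1% of all genes). Of 89 small nucleolar RNA rows 26 did (29.2%, near the share of all genes). Mature microRNAs carry no poly(A) tail, so such values count reads placed on the row and do not measure the mature form. A further 14 rows of small RNA genes, each of 27 counted bases or fewer, stood at or above 1 RPKM without a read, through the added read alone, so the count at 1 RPKM includes them. The row of Mir1198 spans 121 bases (chrX:7807101-7807221) inside Gripap1, which stood at 23.1 RPKM against 689.5 RPKM for the row. Mir682 (641 RPKM, chr13:75645046-75645141) lies in no other gene of the table. Mir142, a microRNA gene of blood cells, stood at 10.2 RPKM. The mature forms of these 3 rows (RefSeq, GRCm38.p6) are shown to give the identity of the rows, with the seed (bases 2 to 8) in capitals.
mmu-miR-1198-5p, chrX:7807142-7807163, plus strand: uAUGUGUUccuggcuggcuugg
mmu-miR-1198-3p, chrX:7807180-7807201, plus strand: aAGCUAGCcucuaacucauggc
mmu-miR-682, chr13:75645119-75645139, plus strand: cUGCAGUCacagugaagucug
mmu-miR-142a-5p, chr11:87756867-87756887, plus strand: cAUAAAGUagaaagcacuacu
mmu-miR-142a-3p, chr11:87756903-87756925, plus strand: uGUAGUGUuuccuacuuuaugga
The 5 seeds differ from each other. Of the 26 small nucleolar RNA rows at or above 10 RPKM, 25 lie inside another gene that itself reached 10 RPKM. This does not set the high rows apart, since 83 of all 89 such rows lie inside another gene. Low rows also had high hosts, such as Snora15 (0.609 RPKM) in Cct6a (349 RPKM). Snord95, the highest at 393 RPKM, lies in Gnb2l1, at 1223 RPKM, and Snora64 (61.1 RPKM) in Rps2, at 471 RPKM. The reads of such a row and of its host gene cannot be told apart.

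Chromosomes differed in their share of the RNA. The X chromosome had 4.37% of the genes and 2.85% of the summed RPKM, and 17.9% of its genes reached 10 RPKM, the lowest percentage of any chromosome but the Y. Chromosome 19 was at the other end with 35.5%, next to chromosome 11 with 35.3%, which held 8.83% of the sum with 7.51% of the genes. On the Y chromosome 2 of 35 genes reached 10 RPKM, Eif2s3y (45.8 RPKM) and Ddx3y (14.5 RPKM).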

How the data were processed

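RNA levels were taken from 1 column, wild-type HSC input. The authors deposited RPKM values as 1 mean of 3 libraries per gene, and these values show that 1 read was added to each gene in each library. The genome build mm10 and the tools Picard and edgeR come from the submitters' processing notes. The roles of these tools, the aligner and the handling of reads with several matches: not given in the sources used here.

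From the deposited RPKM, genes were ranked and shares of the summed RPKM were computed. Depths and the reads of low genes were worked out from the steps in the values (genes without reads give their length). On a simulated column of 23038 genes, 100.00% of 10319 solved values were right. That column was made with the same scaling and added read, so it does not check these assumptions. Gene IDs matched RefSeq (GRCm38.p6) for 22959 of 23038 genes, and symbols are those of the table. Ly6g, Hbb-bt and Cebpa were not analysed here. Promoter windows were found for 17615 genes, 14863 of them with 1 window.

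The gene lists, classes and sets of related genes were chosen with earlier results of these data known. Named genes are the 40 highest, of each list the 4 highest and the lowest with any sort gene, the cell type markers, and members of related sets; other genes named were chosen after their values were seen. A few genes that the rule names are not reported here. Levels are described by counts and medians, and the shares of all genes at 1, 10 and 100 RPKM and the median of all genes (1.1 RPKM) are the background for every list. No test was run, because 1 value per gene carries no spread. Motif searches were tested on made sequences. Python 3.11.15, NumPy 2.4.6, pandas 2.3.3, SciPy 1.17.1 and Matplotlib 3.10.9 were used.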

Additional observations from a re-analysis of the deposited data

How the results depend on the processing

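The 10 highest genes held 3.08% of the summed RPKM as reported, 3.1% without small and ribosomal RNA rows, 3.14% with genes that have a RefSeq protein alone and 3.09% with genes at or above 1 RPKM alone. The 100 highest genes held 16.1% of the summed RPKM with genes that have a RefSeq protein alone and 15.9% with genes at or above 1 RPKM alone. They also held 15.9% with the added reads taken off where a gene's length was known. Ribosomal protein genes held 5.02%, 5.09% and 5% under the same 3 filters (small RNA rows out, RefSeq protein, 1 RPKM). Oxidative phosphorylation genes held 3.81%, 3.87% and 3.8% under those filters. With the added reads taken off where a length was known, ribosomal protein genes held 4.99%. A length was known for 181 of 11641 genes at or above 1 RPKM, so taking off the added reads could hardly move a share. A minimum of 5 or 20 RPKM in place of 10 left 8627 or 4679 genes. The median of HSC genes, 41 RPKM, became 92.6 RPKM with Kit, Ly6a, Slamf1 and Procr alone. The median of the 86 markers of other cell types, 13 RPKM, became 27.7 RPKM with members at or above 1 RPKM alone and 7.93 RPKM without the 4 myeloid lists, an alternative chosen after seeing the data.

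Leaving out each replicate could not be run, since the column holds no value per library. Shares of reads in place of shares of RPKM were not run, since a length was known for 1.55% of genes at or above 1 RPKM, under the 80% required. No paired analysis was possible because the result comes from 1 group without a test. A mean does not show whether its reads came from 1 library. The order of genes of similar level has no error attached to it.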
